A study of Mus musculus with 21 samples.

Results

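Livers of mice that received no particles were compared between 28 days and 1 day after a single instillation of vehicle into the trachea. The 9 arrays were all those whose titles and treatment labels named control mice, 5 at day 1 and 4 at day 28, of 21 arrays in the series. The mice were female C57BL/6, bought at 5 to 7 weeks of age and kept for 1 to 3 weeks before the experiment, and the labels give no age at death. Every mouse was anaesthetised with fentanyl citrate and fluanisone (Hypnorm) and midazolam (Dormicum) for the instillation of 40 µl, and again before it was killed. The vehicle was saline that held 10% cell-free lung lavage fluid from untreated mice, and no group went without an instillation. Time since the instillation and its anaesthesia, age and length of housing go together here and cannot be told apart. The slide that carried an array goes with them in part. The other 12 mice, 6 at each time, received 162 µg of nano-TiO2 in the same vehicle.

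Each array carried Cy5-labelled liver RNA of 1 mouse against a Cy3-labelled reference RNA pooled from 11 mouse cell lines. Values are log2 ratios of liver over reference, and a difference of 1 is a change of 2-fold. On the control arrays, 13667 to 26616 probes were well above background in Cy5, with 20879 to 26616 on the 4 arrays of scan day 2 and 13667 to 16638 on the 5 of scan days 1 and 3. Scan day, one of the 3 days on which the arrays were scanned per the file headers, went with the largest component of variation among the 9 arrays. It held 96.7% of the first principal component, which carried 45.3% of the variance, whereas the groups held 0.0591% of it. Correlations between arrays ran from 0.907 to 0.985, and no pair of arrays held the same values. Scan day was fitted as a block, and scan day 1 held 1 control array of each time (replicate 1). The extraction protocol in the labels speaks of lung. On every control array 13 of 13 measured hepatocyte markers were well above background, with a median of 5.33 to 6.66, and so were 13 of 13 Kupffer cell markers. Between 3 and 10 of 14 lung markers passed the background limit, with medians between -0.08 and 0.09, and Ager and Nkx2-1 were above it on none.

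The liver clears drugs and steroids through cytochrome P450 enzymes, many of which are induced when the nuclear receptors CAR and PXR sense foreign compounds. It also answers type I interferon: the cytokine's receptor activates a complex of transcription factors that binds a short promoter element and switches on a shared set of antiviral genes. Another layer is the circadian clock, in which BMAL1 (gene Arntl) and CLOCK drive their own repressors, so that many liver transcripts rise and fall over each day.

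No feature passed the test between the control groups. Of 17417 features, 11155 of them named genes, limma with Benjamini-Hochberg adjustment called 0 (0%) at an adjusted p under 0.05, and the smallest adjusted p was 0.128. At an unadjusted p under 0.05 there were 1347 features (7.73%), where chance alone gives 871. Of these, 668 (3.84%) lay higher at day 28 and 679 (3.9%) lay lower. The groups did not overlap for 130 features (0.746%), 83 higher (0.477%) and 47 lower (0.27%), and 34 (0.195%) differed by at least 2-fold. The median standard error of a difference was 0.121. Leaving out 1 mouse could change the count: without day 1 replicate 2 there were 8 calls, among them Cyp2b10 and Tle1, without day 1 replicate 4 there was 1, and without any other control mouse there were 0. Without the arrays of scan day 2 there was 1.

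The direction of the nominal differences recurred in mice that the comparison did not use. Day 28 was set against day 1 in the same way in the 12 TiO2 mice, which share slides and scan-day estimates with the vehicle mice but no animals. Slides 1, 4 and 7 held only day 1 arrays and slides 3, 6 and 9 only day 28 arrays, while slides 2, 5 and 8 held both times. With slide as a random block in place of scan day, the correlation within a slide was 0.493. Slide and time are thus partly tied in both sets of mice, and the part of slide in the shared signs was not tested. Of the 668 features that lay higher in vehicle mice 85.8% also lay higher in TiO2 mice, and of the 679 that lay lower 77.8% also lay lower, against 60.8% with one sign over all 17417 features. Among the 100 features with the smallest vehicle p, 97 had one sign in both and 62 also had an unadjusted p under 0.05 in TiO2 mice (8.81% of all features did), while for 94 of them the vehicle difference was the larger in size, which the choice by vehicle p favours. In TiO2 mice 20 features (0.115%) were called, all 20 with the same sign in vehicle mice and 15 with an unadjusted p under 0.05 there (7.73% of all features). One of them, Saa3, had a vehicle difference of -0.002 (SE 0.50), whose sign turned under 10 of 26 alternatives. The difference between the time differences was tested in the same fit, and 0 features were called (507, or 2.91%, at an unadjusted p under 0.05), so no difference is called particular to the vehicle mice.

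**Figure D1:**
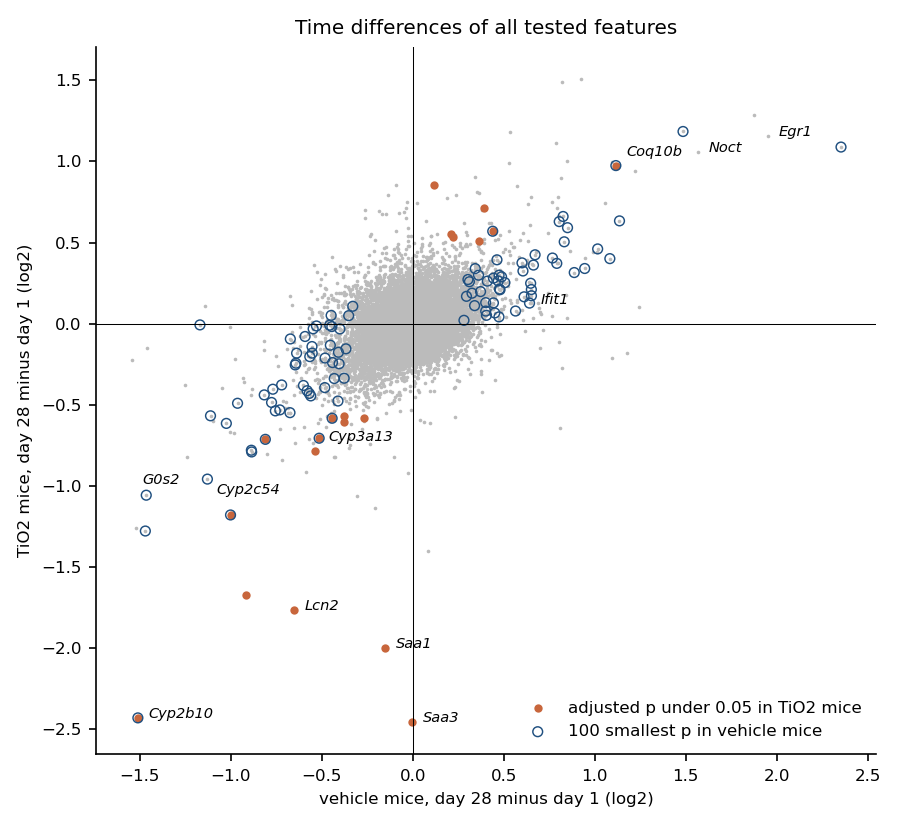
Difference between day 28 and day 1 (log2) of each of 17417 features in vehicle mice (x axis; 4 against 5 mice) and in TiO2 mice (y axis; 6 against 6). Orange points are the 20 features called in TiO2 mice and rings are the 100 with the smallest vehicle p; 97 of the rings lie in the quadrants of one sign, and Saa1 and Saa3 lie near 0 on the vehicle axis but below -2 on the other.

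Genes of drug metabolism lay mostly lower at day 28. Of 41 measured genes of xenobiotic metabolism 32 lay lower and 9 higher, with a median of -0.15 against 0.00 over all features; 9 had an unadjusted p under 0.05 downwards (3.9% of all features did) and 1 upwards (3.84%). The median was -0.36, 0.05 and -0.24 within scan days 1, 2 and 3, so the list lay lower in 2 of the 3, and it was -0.073 without day 28 replicate 1. Cyp2b10, the classical target of CAR, stood at 3.71, 2.35, 4.42, 2.16 and 4.27 in the 5 day 1 livers and at 1.63, 2.34, 2.52 and 1.27 in the 4 day 28 livers. Day 1 replicates 1, 3 and 5 lay above every day 28 mouse, whereas replicates 2 and 4 lay within the day 28 range. The mean was 3.38 ± 1.06 (SD, n = 5) at day 1 and 1.94 ± 0.59 (SD, n = 4) at day 28. With scan day in the fit the difference was -1.51 (SE 0.37), a level 2.85-fold higher at day 1, which did not pass the adjustment (limma, adjusted p = 0.351). Without day 1 replicate 2 it did, at a difference of -1.88 and an adjusted p of 0.0264. In TiO2 mice Cyp2b10 fell by 2.43 between the same times (limma, adjusted p = 0.0025).

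Cyp2c54, a P450 of the 2C family, repeated the pattern of Cyp2b10 between mice. Its level was 4.47, 3.53, 4.21, 3.16 and 4.31 at day 1 and 3.38, 2.55, 3.06 and 2.39 at day 28. Replicates 1, 3 and 5 were again the high ones at day 1, and replicate 4 lay below the highest day 28 mouse. The difference was -1.13 (SE 0.23; limma, adjusted p = 0.167), and it lay between -1.07 and -1.35 within each of the 3 scan days. Near-identical genes of the 2b and 2c families can share a probe, so the gene behind each signal is uncertain.

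Cyp3a13, a P450 of the 3A family, separated the groups on every mouse. It stood at 6.66, 6.23, 6.08, 6.17 and 6.23 at day 1 and at 5.75, 5.81, 5.93 and 5.60 at day 28. The highest day 28 mouse lay below the lowest day 1 mouse. The difference was -0.51 (SE 0.12; limma, adjusted p = 0.283), and in TiO2 mice Cyp3a13 fell by 0.71 (adjusted p = 0.004). On the scanner software's own log ratio the vehicle difference turned to 0.26. Gstm1, a glutathione transferase, also did not overlap, with 3.75 to 4.07 at day 1 and 3.08 to 3.45 at day 28. Gsta3, another glutathione transferase, differed by -0.48 (SE 0.13), and Abcc3, which exports conjugates and bile acids into blood, by -0.60 (SE 0.20). A second Abcc3 probe gave 0.05. Other inducible P450 genes lay near 0: Cyp3a11, the main PXR target of mouse liver, differed by 0.01 (SE 0.13) and Cyp2c29 by -0.09 (SE 0.12).

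Some genes outside drug metabolism split the same mice. G0s2, an inhibitor of the triglyceride lipase ATGL, stood at 3.36, 1.69, 3.17, 2.61 and 3.19 at day 1 and at 1.55, 1.25, 1.24 and 1.37 at day 28. All 5 day 1 mice lay above all 4 day 28 mice, and replicate 2 was the lowest of them. The difference was -1.46 (SE 0.38; limma, adjusted p = 0.385), with -0.63 on the scanner software's log ratio. Bcl6, a repressor that responds to growth hormone, split the day 1 mice most widely of these genes, which were compared after their values were seen: 2.84, 1.90 and 2.47 in replicates 1, 3 and 5 and -1.02 and -0.58 in replicates 2 and 4. The day 28 mice lay from -1.07 to 0.33. Its difference of -1.54 (SE 0.66; limma, adjusted p = 0.613) thus rests on 3 of 5 day 1 mice, while Igf1, the main hepatic target of growth hormone, differed by 0.01 (SE 0.11).

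**Figure D2:**
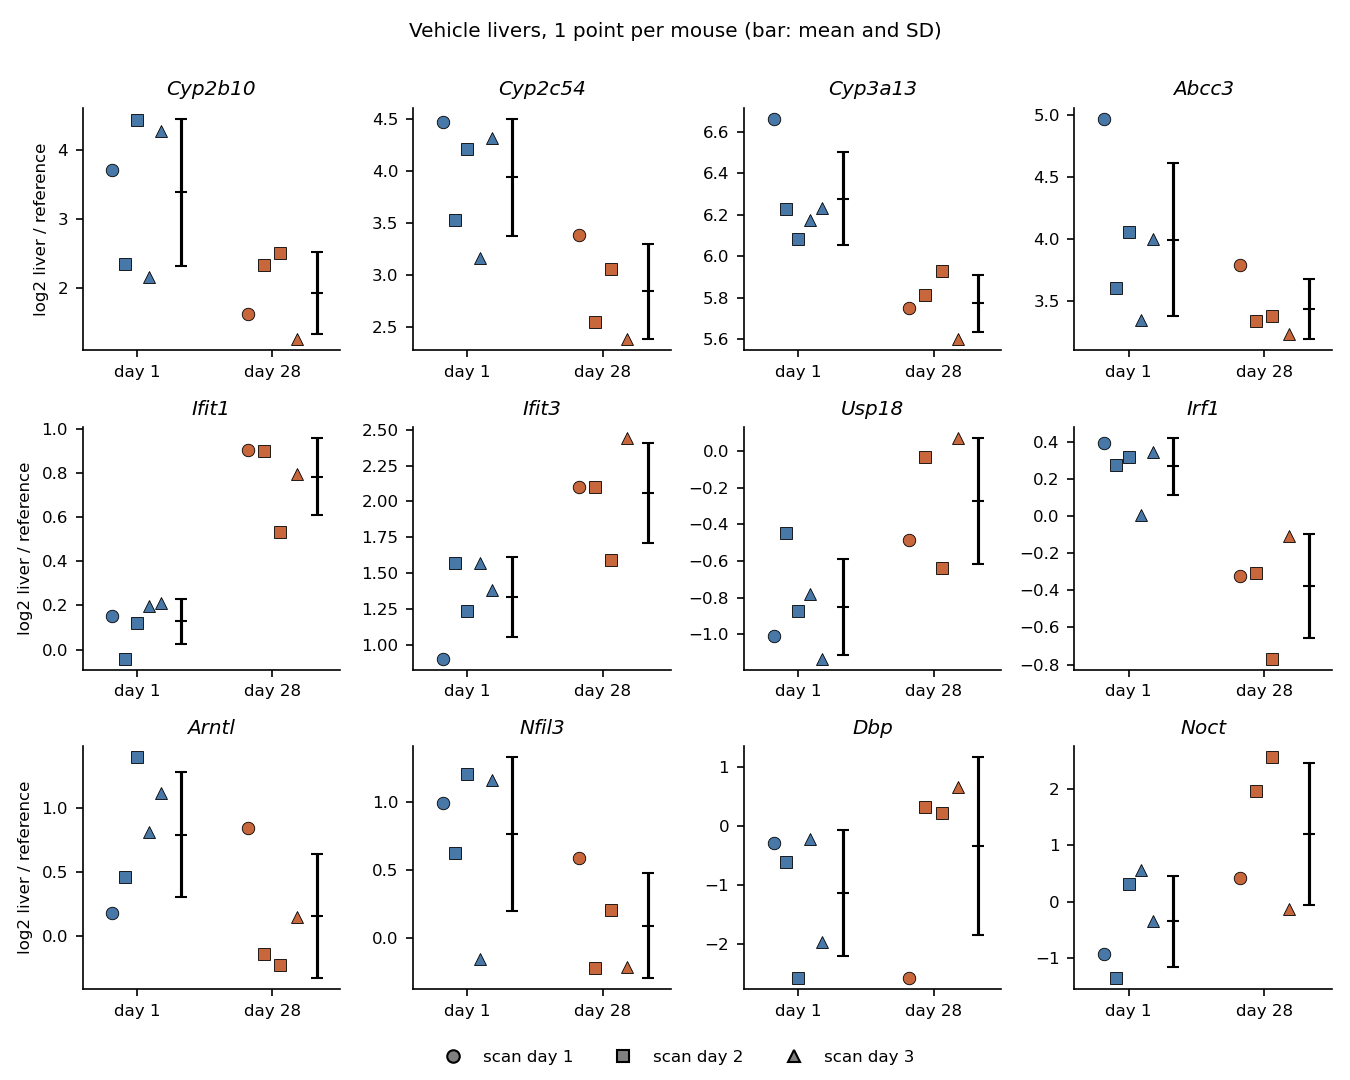
Log2 ratio of liver over reference for 12 genes, 1 point per vehicle mouse, at day 1 (blue, n = 5) and day 28 (orange, n = 4); the symbol gives the scan day and the bar the mean and SD of the plain values. Cyp2b10 and Cyp2c54 show 3 high and 2 low mice at day 1, Cyp3a13, Ifit1, Ifit3 and Irf1 do not overlap, and the day 28 mouse of scan day 1 has the lowest Dbp and the highest Arntl of its group.

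Interferon-stimulated genes lay higher at day 28 as a group. Of 30 measured 27 lay higher and 3 lower, where 50.1% of all features lay higher; 11 had an unadjusted p under 0.05 upwards (3.84% of all features) and 2 downwards, and 0 were called. Their median difference was 0.27 against 0.00 over all features, and it was 0.19, 0.22 and 0.30 within the 3 scan days. Of the 30, 20 kept 1 sign within every scan day (66.7%), against 25.1% of all features. In TiO2 mice the median over the same genes was 0.06 and 3 had an unadjusted p under 0.05 upwards (4.83% of all features). The difference between the TiO2 and vehicle time differences had an unadjusted p under 0.05 for 1 of the 30.

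Promoters of the 2 members with the smallest p are shown because both hold matches to the element that the interferon-activated complex binds. They are the RefSeq windows of GRCm38.p6 from 250 bases before to 50 bases after the gene start, on the plus strand, at chr19:34640639-34640938 (Ifit1) and chr19:34583279-34583578 (Ifit3). Capitals mark pairs of GAAA with any 2 bases between them, on either strand, which begin at -104 and -85 in Ifit1 and at -156 and -122 in Ifit3.
Ifit1: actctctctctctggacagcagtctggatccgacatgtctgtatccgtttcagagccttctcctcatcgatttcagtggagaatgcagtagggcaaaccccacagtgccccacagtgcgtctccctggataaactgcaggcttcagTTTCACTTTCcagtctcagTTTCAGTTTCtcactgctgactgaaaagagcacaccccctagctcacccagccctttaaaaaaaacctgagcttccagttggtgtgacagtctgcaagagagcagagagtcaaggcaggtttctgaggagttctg
Ifit3: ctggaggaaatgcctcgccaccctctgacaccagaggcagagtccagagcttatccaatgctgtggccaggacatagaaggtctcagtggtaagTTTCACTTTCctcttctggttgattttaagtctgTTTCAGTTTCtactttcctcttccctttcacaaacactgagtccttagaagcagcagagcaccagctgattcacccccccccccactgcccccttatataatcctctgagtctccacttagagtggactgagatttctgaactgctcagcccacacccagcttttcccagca
Of 24 measured interferon-stimulated genes with a promoter in the RefSeq table, 13 held this motif in at least 1 promoter, against 3.99% of 27025 genes. Of 32851 promoters of the same length, 3.44% held it. The list was made of genes that interferon induces, so its share with the motif follows from that choice and is no result about these livers. Of the 13, 11 lay higher at day 28, and Cxcl10 and Irgm1 lay lower. Over the whole list 27 of 30 lay higher, and a part of the motif in the differences was not tested.

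Ifit1, an antiviral protein that binds foreign RNA caps, had the smallest p of the group. It stood at 0.15, -0.04, 0.12, 0.20 and 0.21 at day 1 and at 0.91, 0.90, 0.53 and 0.80 at day 28. The lowest day 28 mouse lay above the highest day 1 mouse, and the day 1 mice lay close together. The means were 0.13 ± 0.10 (SD, n = 5) and 0.78 ± 0.17 (SD, n = 4), and the difference was 0.65 (SE 0.13; limma, adjusted p = 0.167). In TiO2 mice it was 0.17, and the difference between the 2 had an unadjusted p of 0.012 that did not pass the adjustment (limma, adjusted p = 0.999).

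Ifit3, a partner of Ifit1, stood at 0.90, 1.57, 1.24, 1.57 and 1.38 at day 1 and at 2.10, 2.10, 1.59 and 2.44 at day 28. The groups touched without overlapping, since day 28 replicate 3 lay just above the highest day 1 mice. The difference was 0.79 (SE 0.18; limma, adjusted p = 0.263). Usp18, which removes ISG15 from proteins and damps the receptor, differed by 0.60 (SE 0.18) and Gbp3, a guanylate-binding protein, by 0.62 (SE 0.21), both with overlapping groups. Rtp4 did not overlap, at -0.48 to -0.14 against -0.03 to 0.46. Day 28 replicate 3 was the lowest of its group in Ifit1 and in each of these genes. Its median over the 30, relative to the mean of the 9 arrays, was -0.08, within the day 1 range of -0.18 to -0.07, and the other day 28 mice reached up to 0.29. Without it the median difference was 0.34, and without day 28 replicate 2 it was 0.20.

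A few genes tied to interferon lay the other way or near 0. Irf1, a transcription factor induced by interferon gamma, stood at 0.39, 0.28, 0.32, 0.01 and 0.34 at day 1 and at -0.32, -0.31, -0.77 and -0.11 at day 28. Every day 28 mouse lay below every day 1 mouse. The difference was -0.64 (SE 0.15; limma, adjusted p = 0.33), and a second Irf1 probe gave -0.22. Ifnar1, a chain of the type I interferon receptor, differed by -0.45 (SE 0.12), with overlap at day 28 replicate 2. Ifit2, Iigp1 and Cxcl10, all inducible by interferon, differed by 0.01, 0.04 and -0.10. Of 12 measured genes of MHC class II and antigen presentation, 7 lay higher and 5 lower, with a median of 0.02 and none at an unadjusted p under 0.05. Lymphocyte markers had a median difference of 0.06 (9 of 15 higher) and Kupffer cell markers of 0.01 (7 of 13 higher). Only 5 to 15 of the 15 lymphocyte markers were above background on a control array, so their median says little. Markers of sinusoidal endothelium had a median of -0.12 (9 lower, 3 higher). Those of stellate cells and collagen also had -0.12 (10 lower, 3 higher), and no member of either list had an unadjusted p under 0.05. In whole liver, fewer cells of a type and less RNA per cell cannot be told apart.

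**Figure D3:**
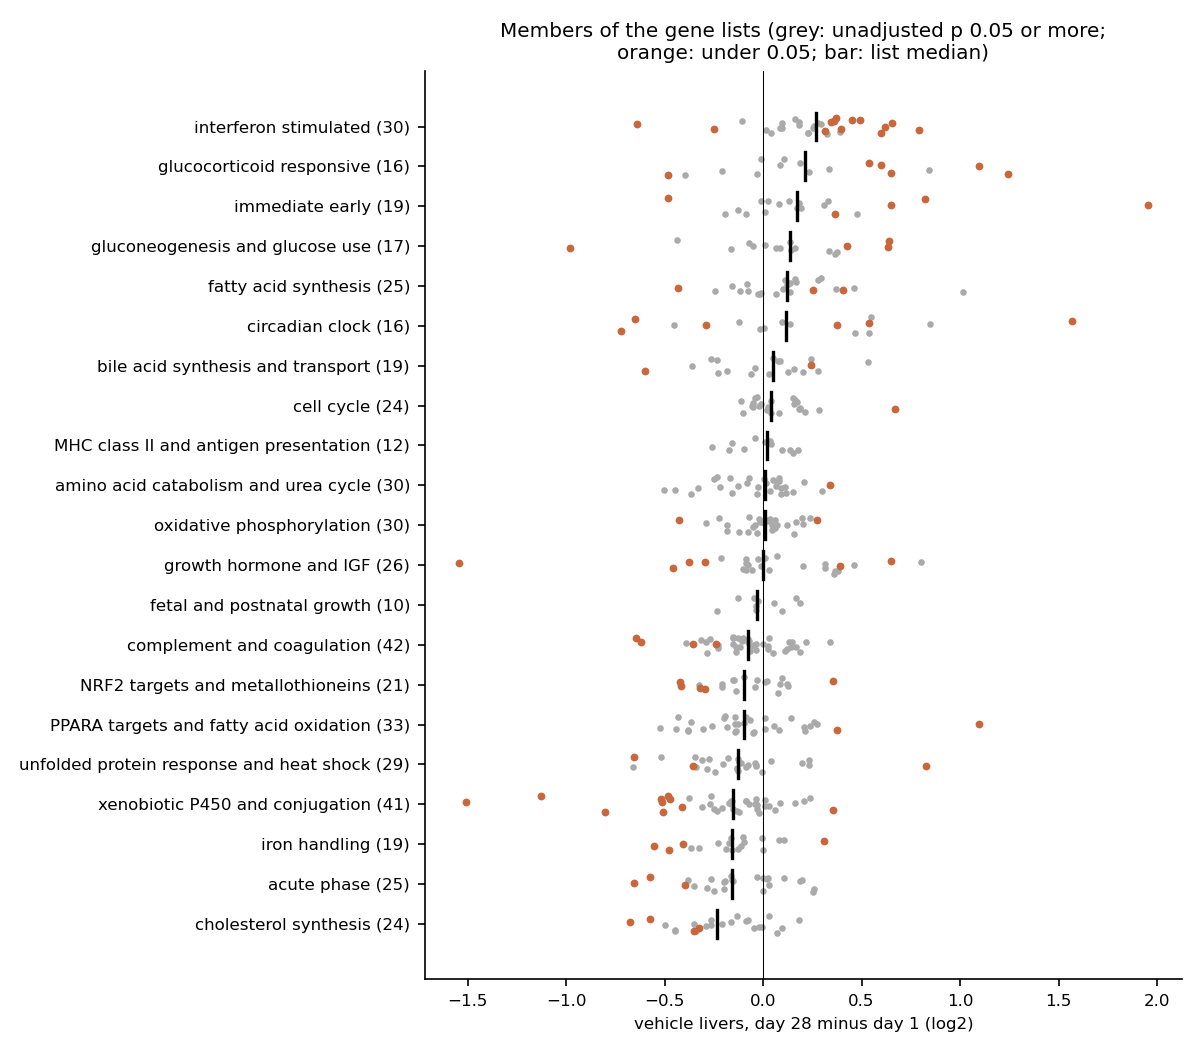
Difference between day 28 and day 1 in vehicle livers (log2, x axis) of each measured member of 21 gene lists, with the number measured in parentheses and the list median as a black bar. Orange points have an unadjusted p under 0.05; the medians run from 0.27 for interferon-stimulated genes to -0.24 for cholesterol synthesis, and no member passed the adjustment.

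Clock genes varied widely between mice of one time. Of 16 measured 10 lay higher and 6 lower at day 28, 3 in each direction at an unadjusted p under 0.05 (3.84% and 3.9% of all features), and 15 of the 16 had the same sign in TiO2 mice. Arntl, Nfil3 and Cry2 lay lower and Noct, Per1 and Hlf higher among the 6 with an unadjusted p under 0.05. Arntl, which encodes BMAL1, stood at 0.18, 0.46, 1.40, 0.81 and 1.12 at day 1 and at 0.85, -0.14, -0.23 and 0.14 at day 28. Day 28 replicate 1 lay within the day 1 range and the other 3 lay below all day 1 mice. The difference was -0.65 (SE 0.25; limma, adjusted p = 0.557), and it ran from -0.91 to -0.48 when each mouse was left out in turn. Nfil3, a repressor of D-box genes, differed by -0.72 (SE 0.26) on one probe and -0.69 on another.

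Dbp, an output transcription factor with a steep daily rhythm, showed the mouse that stood apart. It was -0.30, -0.61, -2.57, -0.22 and -1.97 at day 1 and -2.58, 0.32, 0.21 and 0.66 at day 28. Day 28 replicate 1 was as low as the lowest day 1 mouse, and the other 3 lay above every day 1 mouse. The fitted difference was 0.85 (SE 0.57), but it was -2.28 within scan day 1, which holds that mouse, and 1.86 and 1.75 within scan days 2 and 3. Nr1d1, which encodes the repressor REV-ERB alpha, was -0.63 in the same mouse and 0.89 to 1.09 in the others of its group, for a difference of 0.00 (SE 0.33). Noct, a rhythmic nuclease, stood at -0.93, -1.36, 0.31, 0.56 and -0.34 at day 1 and at 0.42, 1.97, 2.57 and -0.13 at day 28, a difference of 1.57 (SE 0.60) carried by day 28 replicates 2 and 3. Per1 differed by 0.54 (SE 0.23) and Per2 by 0.10 (SE 0.15). The labels give a cycle of 12 hours of light and no hour of death.

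**Figure D4:**
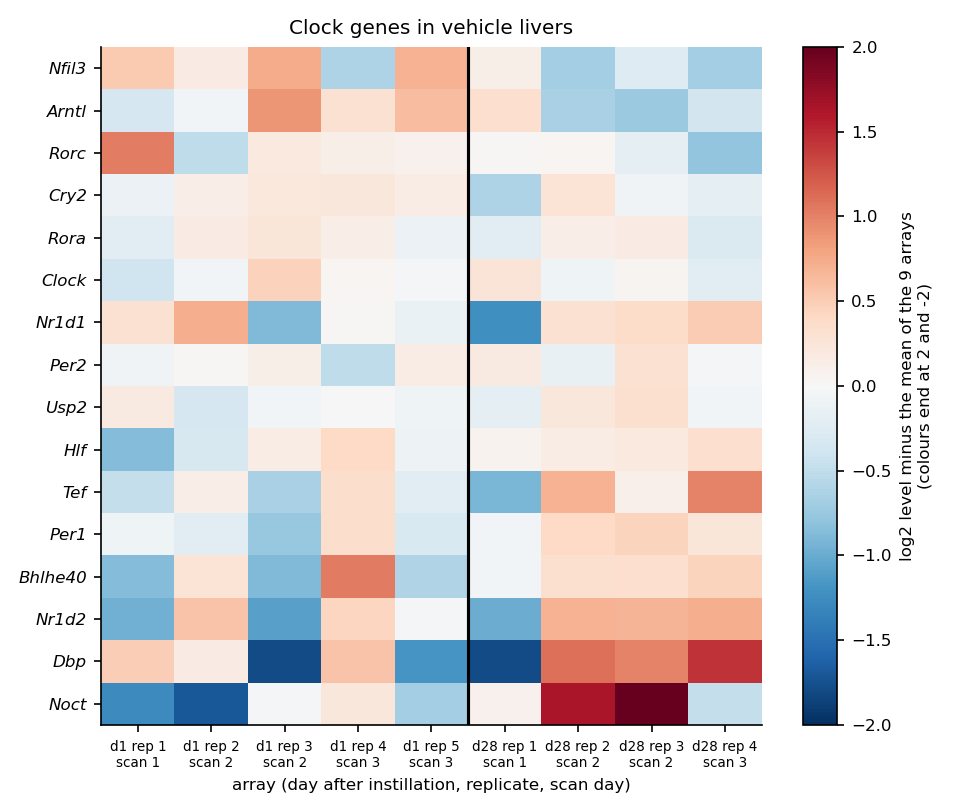
Level of 16 clock genes on the 9 vehicle arrays (columns; d1 and d28 are day 1 and day 28), as log2 minus the mean of the gene over the arrays; rows are ordered by the fitted difference. Day 28 replicate 1 has low Dbp, Nr1d1, Nr1d2 and Tef where the other 3 day 28 mice have high values, and day 1 replicates 3 and 5 are also low for Dbp.

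The promoters of Arntl and Nfil3, the clock genes with the largest differences downwards, both hold a match to the element bound by ROR and REV-ERB receptors, and are shown for that reason. They are RefSeq windows as above, at chr7:113207261-113207560 on the plus strand (Arntl) and chr13:52980990-52981289 on the minus strand (Nfil3). Capitals mark TAGGTCA on either strand, at 30 in Arntl and at -12 in Nfil3.
Arntl: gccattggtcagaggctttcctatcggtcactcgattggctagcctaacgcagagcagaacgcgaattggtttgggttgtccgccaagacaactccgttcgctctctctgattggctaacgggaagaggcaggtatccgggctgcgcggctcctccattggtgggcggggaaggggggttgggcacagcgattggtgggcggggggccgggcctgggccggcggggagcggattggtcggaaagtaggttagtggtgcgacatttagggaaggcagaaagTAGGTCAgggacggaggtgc
Nfil3: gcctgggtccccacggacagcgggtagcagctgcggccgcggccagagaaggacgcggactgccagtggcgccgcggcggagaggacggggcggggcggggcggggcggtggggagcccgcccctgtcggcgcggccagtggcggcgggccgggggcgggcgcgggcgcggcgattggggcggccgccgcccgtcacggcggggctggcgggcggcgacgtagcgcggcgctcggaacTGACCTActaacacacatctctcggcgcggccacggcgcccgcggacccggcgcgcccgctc
Of 13 measured clock genes with a promoter in the table, these 2 held TAGGTCA, against 2.97% of 27025 genes. The E-box CACGTG, which BMAL1 and CLOCK bind, was in the promoters of Per1 and Tef, which both lay higher, against 8.09% of genes. The D-box form TTATGNAA was in those of Noct and Per1, against 3.99% of genes.

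Glucocorticoid-responsive and immediate early genes lay mostly higher at day 28. Of 16 glucocorticoid-responsive genes 11 lay higher, 5 of them at an unadjusted p under 0.05 (3.84% of all features), and 5 lower, 1 of them at that p (3.9%). Their median was 0.21, with 0.12, 0.66 and 0.06 within scan days 1, 2 and 3 and 0.096 without scan day 2. In TiO2 mice 13 of the 16 had the same sign (60.8% of all features). There 1 of the 16 had an unadjusted p under 0.05 upwards (4.83% of all features) and 3 downwards (694 of 17417 features). Errfi1, which shuts down EGF receptor signalling, stood at 1.21, 2.73, 1.29, 3.68 and 2.01 at day 1 and at 3.02, 3.73, 3.74 and 2.98 at day 28. Day 1 replicate 4 lay within the day 28 range and the other 4 day 1 mice lay below it, replicates 1 and 3 the furthest. The difference was 1.24 (SE 0.40; limma, adjusted p = 0.502), and 1.81, 1.72 and 0.13 within scan days 1, 2 and 3. In TiO2 mice it was 0.10. The test of the difference between the 2 did not pass (limma, unadjusted p = 0.042, adjusted p = 0.999). Angptl4, an inhibitor of lipoprotein lipase, was -1.38, 1.75, -0.12, 0.89 and 0.33 at day 1 and -1.22, 2.21, 2.74 and 1.51 at day 28, so the lowest mouse of each time was the one of scan day 1. Igfbp1, an IGF-binding protein that insulin represses, differed by 0.65 (SE 0.23), or 0.36 without day 1 replicate 3 and 0.28 without scan day 2. Dusp1, a MAP kinase phosphatase, differed by -0.48 (SE 0.21).

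Among 19 immediate early genes 14 lay higher, 4 of them at an unadjusted p under 0.05 (3.84% of all features), and 5 lower, 1 of them at that p (3.9%), with a median of 0.17. Within the scan days that median was -0.18, 0.32 and 0.21, and without scan day 2 it was 0.029. In TiO2 mice 11 of the 19 had the same sign (60.8% of all features). Klf4, a zinc-finger transcription factor, did not overlap: it stood at -2.71, -2.87, -3.16, -2.84 and -2.77 at day 1 and at -2.37, -1.92, -2.14 and -2.47 at day 28. Its difference was 0.65 (SE 0.16; limma, adjusted p = 0.33), and without scan day 2 it was 0.35. Egr1, a growth factor response gene, ranged from -4.20 to -0.10 at day 1 and from -2.24 to 0.78 at day 28, with a difference of 1.95 (SE 0.67). Fos differed by 0.33 (SE 0.23) and Junb by -0.08 (SE 0.44), where a second Junb probe gave 0.26.

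Cholesterol synthesis lay lower at day 28, with a median of -0.24 over 24 measured genes, 20 of them lower and 4 higher. An unadjusted p under 0.05 was reached by 4, all lower (3.9% of all features), among them Ebp (-0.32, SE 0.12), Dhcr7 (-0.58, SE 0.23) and Mvd (-0.67, SE 0.28), enzymes of the mevalonate and sterol steps. A second Dhcr7 probe gave -0.22. The medians within the scan days were uneven, at -0.37, 0.01 and -0.29. In TiO2 mice the median of the list was -0.005, and 11 of the 24 had the same sign as in vehicle mice (60.8% of all features). Day 28 replicate 1 had the lowest Dhcr7, 0.12 against 2.30 to 2.69 in its group, and without that mouse the median of the list was -0.10.

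Of 17 genes of glucose use 12 lay higher and 5 lower, with a median of 0.14. In TiO2 mice 11 of the 17 had the same sign (60.8% of all features). G6pc, the last enzyme of gluconeogenesis, was 3.84, 4.72, 5.23, 5.97 and 5.68 at day 1 and 4.77, 5.91, 6.02 and 5.83 at day 28; the groups overlapped, and the mouse of scan day 1 was the lowest at each time. Its difference was 0.64 (SE 0.17; limma, adjusted p = 0.422), with 0.26 on the scanner software's log ratio and 1.603 on the liver channel alone. Ppp1r3c, which targets phosphatase to glycogen, differed by -0.98 (SE 0.33), with day 28 replicate 1 at 3.93 and the other 3 at 2.14 to 2.31. Hjv, a co-receptor for the BMP signal that induces hepcidin, stood at 2.11, 1.68, 1.75, 2.08 and 1.55 at day 1 and at 1.70, 1.26, 1.43 and 0.91 at day 28. Only day 28 replicate 1 reached the day 1 range, and the difference was -0.55 (SE 0.13; limma, adjusted p = 0.33). Of 19 genes of iron handling 15 lay lower, and 12 of the 19 had the same sign in TiO2 mice (60.8% of all features). Among the lower ones were Ftl1 (-0.41, SE 0.15), a ferritin light chain that did not overlap, and Fth1 (-0.48, SE 0.18). Slc40a1, the iron exporter, differed by 0.31 (SE 0.12). Red blood cell markers lay the same way, 5 of 5 measured lower with a median of -0.32, but their scan-day medians were -0.04, 0.02 and -0.75, and their part in the iron genes was not tested.

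Acute-phase genes, which the liver secretes in inflammation, mostly lay lower at day 28 with small differences. Of 25 measured 16 lay lower and 9 higher, 3 at an unadjusted p under 0.05, all lower (3.9% of all features), and the median was -0.16. With each mouse left out the median ran from -0.19 to -0.056, the latter without day 28 replicate 4. Lcn2, which binds bacterial siderophores, stood at 0.16, 0.53, 0.41, 0.26 and 0.55 at day 1 and at -0.39, -0.35, -0.10 and -0.28 at day 28, and was above background on 2 of the 4 day 28 arrays. The groups did not overlap, with means of 0.38 ± 0.17 (SD, n = 5) and -0.28 ± 0.13 (SD, n = 4). The difference was -0.65 (SE 0.29; limma, adjusted p = 0.619), and on the scanner software's log ratio it was -2.28. Lcn2 fell by 1.77 in TiO2 mice (adjusted p = 0.0035), and the test of the difference did not pass (unadjusted p = 0.0076, adjusted p = 0.999). Saa1 and Saa3, serum amyloid genes, differed by -0.15 (SE 0.38; 0.07 on a second Saa1 probe) and -0.002 (SE 0.50) in vehicle mice, and fell by 2.00 and 2.46 in TiO2 mice (limma, adjusted p = 0.011 and 0.016).

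Of the 15 named genes with the smallest p in each direction, the 15 higher ones differed by 0.36 to 1.12 and the 15 lower ones by -0.41 to -1.51, with adjusted p from 0.167 to 0.422. They were chosen by their p, so their size is a description. Of these 30, 11 did not overlap (0.746% of all features), which the choice by p favours. In TiO2 mice 29 had the same sign (60.8% of all features), 16 of those with an unadjusted p under 0.05 there. Coq10b, a mitochondrial protein that binds coenzyme Q, had the largest difference of the higher ones: 0.39, -0.30, 0.33, 0.39 and 0.15 at day 1 against 0.74, 1.44, 2.16 and 0.95 at day 28. All day 28 mice exceeded all day 1 mice, with a difference of 1.12 (SE 0.23; limma, adjusted p = 0.167) and 0.66 and 0.75 on its other probes. Coq10b rose by 0.97 in TiO2 mice (adjusted p = 0.047).

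Tle1, a corepressor of the Groucho family, was 0.72, 1.93, 1.62, 1.64 and 1.52 at day 1 and 1.66, 2.60, 2.59 and 2.30 at day 28. Day 28 replicate 1 lay within the day 1 range, and the day 1 mouse of its scan day was the lowest of all. The difference was 0.83 (SE 0.16; limma, adjusted p = 0.167), and 0.93 without day 1 replicate 2, where it was called (adjusted p = 0.0264). Ccnd1, the G1 cyclin D1, did not overlap, at -0.84 to -0.43 against -0.20 to 0.31, with a difference of 0.67 (SE 0.16). It stood alone in its list: the other 23 of 24 measured cell cycle genes had an unadjusted p of 0.05 or more, and the median of the list was 0.04. Ifrd1, a transcriptional coregulator, and Ube3a, a ubiquitin ligase, also did not overlap, at differences of 0.89 (SE 0.23) and 0.44 (SE 0.12), though a second Ube3a probe gave 0.14. Slc25a32, a mitochondrial folate carrier, differed by 0.61 (SE 0.13) and Arl4d, a small GTPase, by 1.02 (SE 0.26), both with overlapping groups. Arl4d differed by 0.42, 1.81 and 0.23 within scan days 1, 2 and 3, and by 0.33 without scan day 2. The remaining higher genes were Ddx39b (0.36), Setd4 (0.56), Adgrf1 (0.47), Blnk (0.77) and Msto1 (0.37), all with overlapping groups, and a second Ddx39b probe gave 0.04.

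Among the lower genes Cbx2, a Polycomb protein, did not overlap, at -0.33 to 0.24 against -0.75 to -0.34, with a difference of -0.60 (SE 0.12; limma, adjusted p = 0.167). H1f4, a linker histone, differed by -0.73 (SE 0.15), Pnp, a purine phosphorylase, by -0.41 (SE 0.10), and Abtb2 by -0.75 (SE 0.20). Sowahb was 0.65 in day 28 replicate 1 and -0.04 to 0.01 in the other 3, against 0.56 to 1.07 at day 1, for a difference of -0.67 (SE 0.16). Exo5, an exonuclease, differed by -0.55 (SE 0.14). Olfr726, an odorant receptor, differed by -0.45 (SE 0.10) and by 0.05 in TiO2 mice. The difference between the 2 had an unadjusted p of 0.0012 that did not pass the adjustment (limma, adjusted p = 0.999). Olfr726 was above background on 4 of the 5 day 1 arrays and 3 of the 4 day 28 arrays. Its vehicle difference was -0.83 with offset 10 and -0.25 on the liver channel alone. Sowahb and Exo5 were above background on 3 of the 4 day 28 arrays.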

How the data were processed

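Per the labels, liver RNA in Cy5 was hybridised against a common reference in Cy3 on 2-colour Agilent arrays, with no dye swap. The deposited scanner files hold intensity values per spot and a log10 ratio, made with Agilent Feature Extraction (10.7.3.1 per the file headers; 9.5.3.1 per the submitters' processing notes). The authors' deposited value table, on a log2 scale, served as an alternative. The mean spot signal was not used here, so the median signals were corrected with normexp (offset 50) and normalized by loess within each array (limma 3.58.1, R 4.3.3), without control spots. Spots marked as outliers were left out, and spots of a probe were averaged. Of 41174 probes, 21144 were kept that were well above background in Cy5 on at least 50% of the arrays of either control group. A gene is its kept probe with the highest mean Cy5 signal, and probes without a symbol count singly. Group means and scan day (3 days, from the headers) were fitted over all 21 arrays with lmFit and eBayes, with Benjamini-Hochberg adjustment over 17417 features. Of these, 171 lacked a value on some array. The design text speaks of 22 arrays, and 21 were analysed. Replicates are separate mice, and their number limits the precision.

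The members, gene lists and tests were chosen with earlier results of these data known. Named are the 15 named genes with the smallest p in each direction, up to 4 members of each list, and a fixed set of liver and clock genes, of which Mki67 was not among the features tested. Genes outside this rule are given for contrast. Some genes under it are not reported here. The fit of the vehicle comparison was tested on simulated log ratios that held the scan-day pattern of the arrays and no slide effect. The steps before the fit, the list summaries, the motif search and the flagging of distant mice were not simulated. The alternatives changed the scan-day term, the samples in the fit, the background correction, the normalization, the filter, the probe rule and the array weights. Replicate numbers follow deposition order and pair no mice.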

Additional observations from a re-analysis of the deposited data

Results flagged for a closer look

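Of 190 groups examined (95 genes at each time), 24 held a mouse whose gap to the nearest other mouse was large for the range of its group. Chance flags about 1 in 20 groups if the arrays of a group differ only at random. The plain levels used here held no scan-day term, so that rate does not apply across scan days. Of the 24, 21 were on the arrays of scan day 1, which holds 1 control mouse of each time (replicate 1) and 4 TiO2 mice. Replicate 1 was the only array of scan day 1 in its group, so mouse and scan day cannot be told apart there.

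In the day 1 mouse of scan day 1 the distant log2 levels were 6.66 for Cyp3a13, 1.35 for Ifnar1, -0.57 for Ube3a, 4.99 for Igf1, 5.04 for Fga, 1.75 for Ebp, 1.35 for Dhcr7, -4.08 for Asns, 5.27 for Abcb11, 2.21 for C1qa and 2.52 for Prdx1. Cyp3a13, Ifnar1, Asns and Prdx1 were high there, and the others low. In the day 28 mouse of scan day 1 they were -2.58 for Dbp, -0.63 for Nr1d1, 0.65 for Sowahb, 0.12 for Dhcr7, 6.99 for Igfbp1, 3.85 for Slc40a1, 1.97 for Herpud1, 4.77 for G6pc, 3.93 for Ppp1r3c and 4.28 for Abcb11. Sowahb and Ppp1r3c were high there and the others low. Dhcr7 and Abcb11 were low in both mice. The others were Ube3a at 0.0703 in day 28 replicate 2, Cidec at 0.0940 in day 1 replicate 5 and Agpat2 at 1.78 in day 1 replicate 2.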

How the results depend on the processing

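In vehicle mice the count of called features was 0 under every alternative but 3: 1 without scan day 2 (an unnamed probe), 1 without day 1 replicate 4 (unnamed) and 8 without day 1 replicate 2 (3 unnamed probes, Cyp2b10, Gstm4, Tjp3, Tle1 and Ulk1), a range of 0 to 8 with each mouse left out. In TiO2 mice the count of 20 became 6 without a block, 32 with slide as a random block, 12 with offset 10, 3 on the scanner software's log ratio, 11 with array weights, and 6, 1 and 2 without scan days 1, 2 and 3; with each control mouse left out it ran from 17 to 24. The test of the difference stayed at 0. No paired analysis was possible because no replicate number in the labels recurs between the groups. Of the 95 genes, those whose direction turned, cause not tested, were mostly near 0. Cyp3a13 became 0.26 and Apcs 0.011 on the scanner software's log ratio, Cdc20 -0.018 without scan day 3 and Dbp -0.017 without scan day 2. Saa3 became 0.17 with slide as a random block, 0.0075 with offset 10, 0.044 with scaling, 0.026 in the authors' table, 0.032 with weights and 0.33 without scan day 2 (-0.22 to 0.23 with each mouse left out). Per2 became -0.0043 with slide and -0.013 with weights. Nr1d1 became -0.017 without a block, -0.020 with offset 10, -0.082 on the liver channel alone, -0.17 on the log ratio, and -0.38 and -0.23 without scan days 2 and 3 (-0.27 to 0.40). Igf1 became -0.038 with slide, -0.0055 on the log ratio, -0.0055 in the authors' table, -0.073 with weights and -0.10 without scan day 1 (-0.072 to 0.088). Mt1 became 0.11 with weights and 0.19 without scan day 2 (-0.57 to 0.11). Mt2 became -0.013 without a block, -0.073 with slide, -0.12 on the log ratio, and -0.0035 and -0.15 without scan days 1 and 3 (-0.38 to 0.70). Alb became 0.0065 with slide, 0.048 with scaling, 0.050 with weights and 0.12 without scan day 1 (-0.090 to 0.12). The median over all features moved by at most 0.02. With 4 and 5 mice a difference had to be several times its standard error to be called, so a difference that was not called is not shown to be absent.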

Other observations

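Several other gene groups in the vehicle livers held nominal differences with no call. Of 29 genes of the unfolded protein response and heat shock 24 lay lower at day 28, 2 of them at an unadjusted p under 0.05 (3.9% of all features). The other 5 lay higher, 1 of them at that p (3.84%). Their median was -0.13, with -0.045, -0.044 and -0.22 within scan days 1, 2 and 3. Pdia4, a disulfide isomerase, differed by -0.66 and Asns, asparagine synthetase, by -0.35, whereas Herpud1, which acts in the clearance of misfolded proteins, differed by 0.83. Of 42 genes of complement and coagulation 28 lay lower, 4 of them at an unadjusted p under 0.05 (3.9% of all features), with C8a at -0.65 (-0.30 without day 28 replicate 4), C1qa at -0.62, C4bp at -0.24 and F11, coagulation factor XI, at -0.36 without overlap. Their median was -0.08, with -0.21, 0.06 and -0.17 within the 3 scan days and -0.019 without day 28 replicate 4. Of 26 genes of growth hormone and IGF 13 lay higher and 13 lower, from -1.54 to 0.80, with Igfbp2 at 0.39 and Stat5a at -0.29. An unadjusted p under 0.05 was reached by 2 of the higher ones (3.84% of all features) and 4 of the lower ones (3.9%). Igfbp2 rose by 0.71 in TiO2 mice (limma, adjusted p = 0.028). Of 21 NRF2 targets and metallothioneins 13 lay lower, with Gclm at -0.42, Prdx1 at -0.42, Nqo1 at -0.30 and Srxn1 at 0.36, for which 2 other probes gave 0.08 and 0.09. Mt1 and Mt2 ranged from -1.41 to 0.63 and from -2.36 to 1.28 over the 9 mice, with differences of -0.21 (SE 0.38) and 0.09 (SE 0.63).

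Lipid genes had medians of -0.10 over 33 genes of fatty acid oxidation, where Hadhb differed by 0.37, and 0.12 over 25 of fatty acid synthesis, where Tkfc differed by 0.41, Fads2 by 0.25 and Agpat2 by -0.43. Cyp7a1, which starts the classical bile acid pathway, ran from 2.57 to 5.46 at day 1 and from 4.27 to 6.24 at day 28, a difference of 0.53 (SE 0.52), with 0.017 without day 1 replicate 2, and a second probe gave 0.10. Amacr, of the bile acid pathway, differed by 0.24. Lists of 30 genes of oxidative phosphorylation and 30 of amino acid catabolism and the urea cycle had medians of 0.01 and 0.01. Alb differed by -0.02 (SE 0.15). The smallest p of all belonged to a probe with no gene name, A_52_P78423, which stood at 0.23 to 0.97 at day 1 and at -0.50 to 0.12 at day 28 without overlap and differed by -0.81 (SE 0.14; limma, adjusted p = 0.128). Another unnamed probe, A_51_P155873, differed most, by 2.35 (SE 0.61): it stood at 4.26, 4.88 and 2.61 in day 28 replicates 2, 3 and 4, at 0.06 in replicate 1, and at -0.07 to 1.61 at day 1. This probe was above background on only 3 of the 5 day 1 arrays and 3 of the 4 day 28 arrays.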
